A study of Mus musculus with 8 samples.

Results

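The comparison was made within the NanogBiD arm, between the places where BRG1 was found and the places where histone H3 was acetylated at lysine 27 (H3K27ac). Its members were every peak of the NanogBiD BRG1 list and of the NanogBiD H3K27ac list, 53748 and 42598 peaks, joined into regions wherever peaks overlapped or touched. This gave 62326 regions, of the 123412 that the peaks of all 8 lists of the series form together. A region held peaks of both lists (33170 regions, 53.2%), of BRG1 only (19988, 32.1%) or of H3K27ac only (9168, 14.7%). Regions that reached within 2 kb of an annotated transcript start were called promoter regions (19380) and all others distal regions (42946).

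The study measured chromatin by CUT&Tag, in which an antibody guides a transposase to its target so that the DNA beside the target is cut out for sequencing. The cells were mouse embryonic fibroblasts (MEFs) of the OG2 line of mice, whose transgene expresses a fluorescent reporter from Oct4 regulatory DNA, at day 5 of reprogramming towards pluripotency. Every group received retroviral Oct4. The NanogBiD groups also received Nanog fused to the BRG1-interacting domain of SS18, a subunit of the BAF complex, which the labels name NanogN70, and the NanogWT groups received unmodified Nanog. In each arm libraries were made for BRG1, H3K27ac, H3K4me1 (antibody entered in the labels as H3K4me) and the FLAG tag carried by NANOG, so that there were 8 groups with 1 list each. The replicates behind a list were merged before its peaks were called, so no test between conditions was possible. Intervals in brackets are 95% Wilson intervals over regions, which cover counting error only, and ranges after medians are quartiles over regions. Both factors were expressed from retroviruses, so the cells of a culture need not all carry the same dose, and a list averages over all of them.

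BRG1, encoded by Smarca4, is the ATPase that drives the BAF complex, which slides and evicts nucleosomes and so gives transcription factors access to DNA. H3K27ac is laid down by the acetyltransferases p300 and CBP and marks active promoters and active enhancers, while H3K4me1 without H3K27ac is the usual mark of poised or primed enhancers. The presence of BRG1 alone therefore says that a remodeller sits at a site, and the presence of H3K27ac says that the site carries a mark of activity. In fibroblasts, AP-1 factors such as FOS and JUN are the best known partners of BAF at enhancers.

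The sequences under the summits of some of the highest-scoring regions are shown first, because classes differed in the letters they carry. Every class but promoter regions with BRG1 only is among them. Each is the 101 bp around the BRG1 summit, or around the H3K27ac summit where there was no BRG1 peak, on the plus strand of mm10 (GRCm38). Capitals mark matches on either strand to the AP-1 site TGAGTCA or TGACTCA, the SOX core ACAATG or ACAAAG, the TEAD site GGAATG, the GC box GGGCGG, and the NFY box CCAAT. The names are those of the nearest protein-coding gene.
Sp1, promoter region with both, chr15:102405835-102405935: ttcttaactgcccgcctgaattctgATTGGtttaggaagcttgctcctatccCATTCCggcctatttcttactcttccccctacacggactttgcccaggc
Psme3, promoter region with H3K27ac only, chr11:101315992-101316092: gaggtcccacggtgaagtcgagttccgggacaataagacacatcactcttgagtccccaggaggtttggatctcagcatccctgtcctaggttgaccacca
Zfp869, distal region with both, chr8:69716969-69717069: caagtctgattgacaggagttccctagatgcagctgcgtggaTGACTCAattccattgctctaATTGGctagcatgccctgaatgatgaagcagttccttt
Rps6ka1, distal region with both, chr4:133910758-133910858: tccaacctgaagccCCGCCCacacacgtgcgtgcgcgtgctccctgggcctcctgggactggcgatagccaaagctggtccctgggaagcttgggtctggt
Ccnl1, distal region with both, chr3:65974532-65974632: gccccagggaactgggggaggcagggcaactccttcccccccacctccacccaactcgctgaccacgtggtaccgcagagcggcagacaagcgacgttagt
D430042O09Rik, distal region with both, chr7:125901011-125901111: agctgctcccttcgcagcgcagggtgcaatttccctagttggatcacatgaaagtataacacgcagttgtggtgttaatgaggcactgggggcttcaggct
Fign, distal region with BRG1 only, chr2:63963506-63963606: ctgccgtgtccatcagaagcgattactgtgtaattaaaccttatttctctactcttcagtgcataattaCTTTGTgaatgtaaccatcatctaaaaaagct
Spock3, distal region with BRG1 only, chr8:63169425-63169525: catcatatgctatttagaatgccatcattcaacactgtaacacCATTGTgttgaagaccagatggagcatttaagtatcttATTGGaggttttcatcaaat
Gm11114, distal region with BRG1 only, chr9:85157606-85157706: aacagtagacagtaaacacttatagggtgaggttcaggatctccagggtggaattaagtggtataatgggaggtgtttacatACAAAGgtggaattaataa
D3Ertd751e, distal region with BRG1 only, chr3:42023683-42023783: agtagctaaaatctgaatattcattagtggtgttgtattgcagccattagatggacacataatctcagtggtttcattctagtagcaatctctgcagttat
Ndfip2, distal region with H3K27ac only, chr14:105328550-105328650: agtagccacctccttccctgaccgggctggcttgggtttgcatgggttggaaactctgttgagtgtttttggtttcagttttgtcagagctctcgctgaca
Grhl2, distal region with H3K27ac only, chr15:37135501-37135601: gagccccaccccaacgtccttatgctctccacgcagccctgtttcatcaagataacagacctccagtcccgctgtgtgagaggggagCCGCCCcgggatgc
Of the 4 distal sequences with BRG1 only, 3 hold a SOX core and that near D3Ertd751e holds none of these letters, and the 501 bp around the 4 had a GC content of 33.1% to 38.1%. Over all regions SOX cores lay in 14.9% of windows at the summit and 14.1% of windows 1 kb away. Of the 4 distal sequences with both, that near Zfp869 holds an AP-1 site, that near Rps6ka1 a GC box and the other two none.

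At promoters BRG1 and H3K27ac were mostly found together, and at distal sites BRG1 was nearly as often found alone. Of the promoter regions with BRG1, 84.0% (83.4 to 84.6, n = 16315) held H3K27ac, and of the distal regions with BRG1 52.8% (52.3 to 53.3, n = 36843) did. Read the other way, 81.7% (81.1 to 82.3, n = 16769) of promoter H3K27ac regions and 76.1% (75.6 to 76.6, n = 25569) of distal ones held BRG1. The lists come from cultures in bulk, so a mark in fewer cells and less of it per cell cannot be told apart. Distal regions with BRG1 only (17377) outnumbered distal regions with H3K27ac only (6103). At promoters the counts of the single classes were closer, 2611 with BRG1 only and 3065 with H3K27ac only. The BRG1 list is the longer one, and when each list was cut to its top 20000 peaks by score the distal shares were 51.1% for BRG1 regions with H3K27ac and 70.0% for H3K27ac regions with BRG1. The excess of BRG1 among promoter over distal H3K27ac regions was kept under 3 of 7 other ways of processing and turned round under the rest. It turned most with the lists of 20000 peaks, to 64.7% at promoters and 70.0% at distal regions. With only summits of at least 15 tags the shares were 60.3% and 62.1%.

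**Figure D1:**
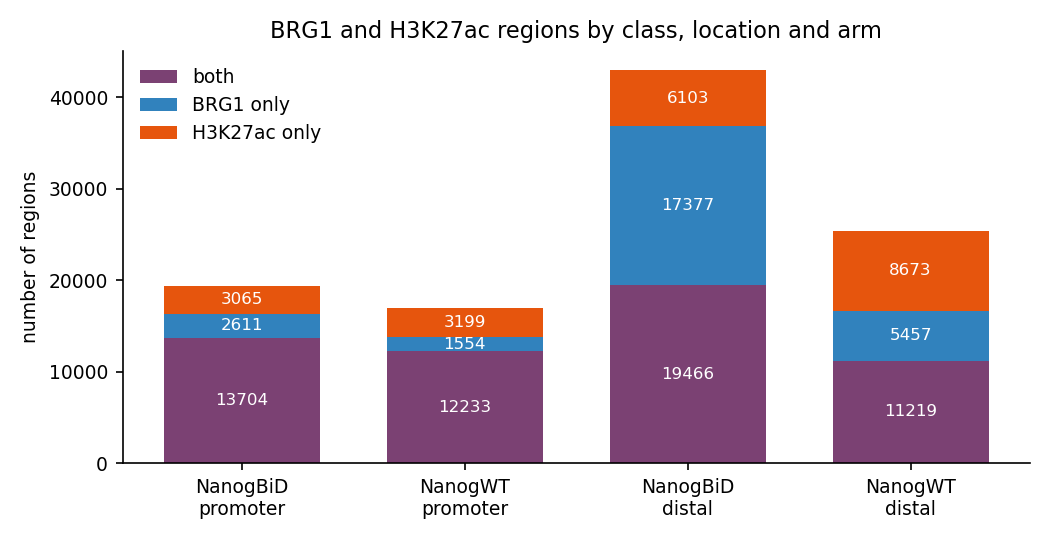
Number of regions (y axis) that held BRG1 and H3K27ac, BRG1 only or H3K27ac only, at promoter and at distal sites in the NanogBiD and NanogWT arms (x axis). The distal bar of NanogBiD holds 17377 regions with BRG1 only and that of NanogWT 5457.

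In NanogWT the full lists gave the opposite order of the single classes at distal sites, with 5457 regions with BRG1 only and 8673 with H3K27ac only, but that order depended on the length of the lists. Cut to 20000 peaks each they gave 3691 with BRG1 only and 3093 with H3K27ac only, the same order as in NanogBiD (5636 and 2528), whereas with scores of at least 100 the counts were 1567 and 5026. On the full NanogWT lists 67.3% (66.6 to 68.0) of distal BRG1 regions held H3K27ac, and 56.4% (55.7 to 57.1) of distal H3K27ac regions held BRG1. At promoters the same full lists gave 88.7% and 79.3%. The NanogWT BRG1 list holds 30859 peaks and its H3K27ac list 35452, and the depth behind every list is unknown. With all 4 lists cut to 20000 peaks by score, an alternative chosen after seeing the data, 51.1% of distal BRG1 regions held H3K27ac in NanogBiD and 59.1% in NanogWT, and 70.0% and 63.3% of distal H3K27ac regions held BRG1. On those equal lists the promoter share of H3K27ac regions with BRG1 was the lower in NanogBiD, 64.7% against 82.1%, although on the full lists it was the higher of the pair.

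BRG1 summits were taller where H3K27ac was present, and acetylated summits were taller where BRG1 was present. Summit height is the number of tags piled up at the summit and is comparable only within a list. At distal regions the median BRG1 summit was 15 tags (11 to 20) with H3K27ac and 10 tags (9 to 13) without it, and at promoters 16 (12 to 22) and 11 (9 to 14). The median H3K27ac summit was 24 tags (17 to 32) at promoters with BRG1 and 13 (11 to 17) at promoters without it, and 15 (12 to 19) and 12 (10 to 14) at distal regions. Regions with both were also longer, with a median of 1205.5 bp at distal sites against 656 bp for BRG1 only and 764 bp for H3K27ac only. A merged region of peaks from both lists is longer by construction.

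The share of BRG1 regions that held H3K27ac climbed with the height of the BRG1 summit over the whole range. At distal regions it was 19.6% (17.7 to 21.6) for summits of at most 7 tags, 39.0% for 10 to 11 tags, 72.5% for 15 to 19 tags and 96.3% (95.1 to 97.3) for 30 tags or more. At promoters it ran from 47.5% to 97.2% over the same bands. Within a band promoters were more often acetylated than distal regions, with 72.3% (70.4 to 74.0) at 10 to 11 tags, and the intervals met in the tallest band. The opposite held for acetylated regions, where at 10 to 11 H3K27ac tags 48.5% (45.8 to 51.3) of promoter regions and 60.7% (59.3 to 62.0) of distal regions held BRG1.

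**Figure D2:**
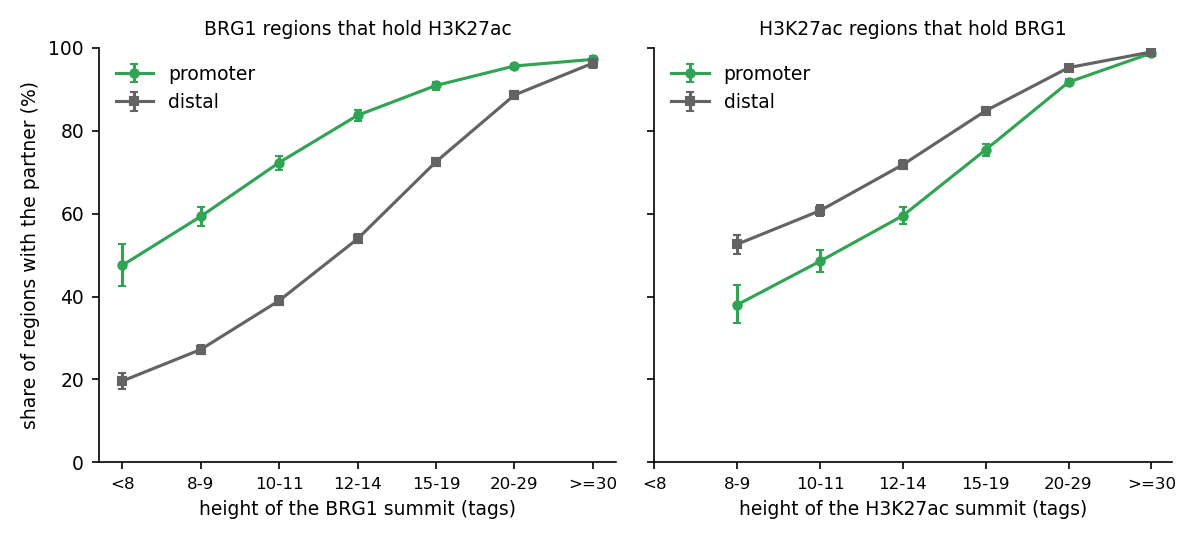
Left, the share of BRG1 regions with an H3K27ac peak (y axis, %) by height of the BRG1 summit in tags (x axis), and right, the share of H3K27ac regions with a BRG1 peak by height of the H3K27ac summit. Bars are 95% Wilson intervals over regions and bands with fewer than 20 regions are not drawn. The distal share rises from 19.6% to 96.3% on the left, and promoter regions lie above distal ones on the left and below them on the right.

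Regions of a single class lay nearer to the limit of their list. The score of a peak is the caller's p-value on a negative logarithmic scale, and every list ends at a score of 50, so what lies just outside it is not in the files. Just inside it, at scores from 50 to 60, lay 25.9% of distal regions with BRG1 only and 6.68% of those with both, and for H3K27ac the distal shares were 33.7% without BRG1 and 10.7% with it. At promoters 30.1% of regions with BRG1 only and 21.1% of those with H3K27ac only had such scores. What part of the single classes holds a partner below the limit cannot be told from the lists. A peak of the other list lay within 1 kb of 4.05% (3.77 to 4.35) of distal regions with BRG1 only, 8.85% of distal regions with H3K27ac only, 11.4% of promoter regions with BRG1 only and 8.61% of promoter regions with H3K27ac only. The median gap was 17.7 kb for distal regions with BRG1 only and 9.4 to 11.3 kb for the rest.

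Where both were present their summits were close together. The BRG1 and H3K27ac summits were a median of 109 bp (39 to 239) apart at promoters and 101 bp (36 to 212) at distal regions, and at most 200 bp apart in 69.3% and 73.1% of regions. At 11313 promoters with both, the BRG1 summit lay at a median of -10 bp from the nearest protein-coding start (quartiles -159 and 97, downstream positive) and the H3K27ac summit at 1 bp (-105 and 104). The upstream quartile of BRG1 was thus the farther from the start, and 40.9% of BRG1 summits and 48.8% of H3K27ac summits lay within 100 bp of it. Promoter regions with H3K27ac only leaned downstream, with 60.8% (58.8 to 62.7, n = 2349) of summits beyond the start. Promoter regions with BRG1 only were seldom centred on a start: 12.3% (10.7 to 14.1, n = 1435) of their summits lay within 100 bp of one.

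**Figure D3:**
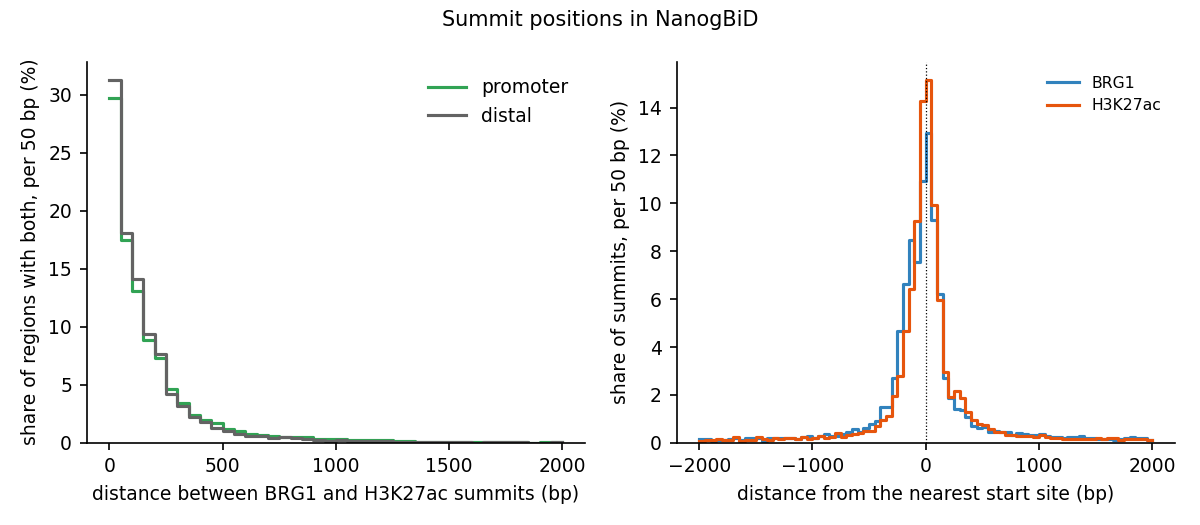
Left, distance between the BRG1 and H3K27ac summits of regions with both (x axis, bp) against the share of regions per 50 bp (y axis), for promoter and distal regions. Right, position of the BRG1 and H3K27ac summits from the nearest protein-coding start, downstream positive, at promoter regions with both. The left curves fall away over short distances, with medians of 109 and 101 bp, and on the right the BRG1 curve is the lower at the start and the broader on its upstream side, with an upstream quartile of -159 bp against -105 bp.

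The heights of the marks moved together across regions with both, and BRG1 followed FLAG more closely than H3K27ac. As a description across regions of the same libraries, Spearman's rho between BRG1 and H3K27ac height was 0.549 at distal regions (n = 19466) and 0.632 at promoters (n = 13704). Between BRG1 and FLAG height it was 0.802 and 0.818, and between H3K27ac and FLAG 0.441 and 0.469. The rho of H3K4me1 height was 0.432 with H3K27ac and 0.284 with BRG1 at distal regions, and 0.353 and 0.386 at promoters, where the order turned. Tags of every library depend on how open and how mappable a region is, which the points of these correlations share.

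Peaks of FLAG, the tag carried by NANOG, lay at most BRG1 regions with or without acetylation, and H3K4me1 was the mark that separated them. No control library is named, so the part of open chromatin in the FLAG peaks cannot be told. A FLAG peak lay in 95.9% (95.6 to 96.2) of distal regions with both and in 84.1% (83.6 to 84.7) of those with BRG1 only, against 47.7% (46.4 to 48.9) of those with H3K27ac only. An H3K4me1 peak lay in 70.4% (69.8 to 71.1), 31.9% (31.2 to 32.6) and 52.3% (51.0 to 53.5). The most frequent combination among distal regions with BRG1 only was FLAG without H3K4me1, in 9861 of 17377 (56.7%), while among distal regions with both it was FLAG with H3K4me1, in 13211 of 19466 (67.9%). The H3K4me1 shares depended on the peaks kept: with scores of at least 100 they were 44.4% with H3K27ac and 15.8% without, and FLAG without H3K4me1 was then the more frequent combination in both classes, at 53.8% and 77.1%. On the full lists FLAG lay at promoters in 94.4%, 75.7% and 35.9% of the regions with both, BRG1 only and H3K27ac only, and H3K4me1 in 84.0%, 40.4% and 64.7%.

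The gap in H3K4me1 was present in every band of BRG1 height. Among distal regions with BRG1 summits of 6 to 9 tags, H3K4me1 was present in 65.7% (63.7 to 67.6) of regions with H3K27ac and 30.1% (29.1 to 31.3) of those without, and at 20 to 29 tags in 77.3% (76.0 to 78.6) and 34.9% (30.9 to 39.2). At 30 tags or more the shares were 87.4% (85.3 to 89.2, n = 1078) and 36.6% (23.6 to 51.9, n = 41). The gap in FLAG narrowed with height, from 91.9% against 85.6% at 10 to 11 tags to 99.6% against 95.4% at 20 to 29 tags.

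Distal regions with BRG1 only seldom held BRG1 or H3K27ac in the NanogWT arm, while FLAG was often present there. Of these regions, 12.4% (11.9 to 12.9) held BRG1 and 8.71% (8.30 to 9.14) held H3K27ac in NanogWT, compared with 53.7% and 59.5% of distal regions with both. FLAG was present in NanogWT at 48.3% of those with BRG1 only, and 6990 of 17377 (40.2%) had no peak of any of the 4 targets in that arm, against 7.13% of regions with both. Within bands of BRG1 height the difference stayed: at 20 to 29 tags, 70.1% (68.6 to 71.5) of distal regions with H3K27ac and 25.1% (21.5 to 29.1) of those without had BRG1 in NanogWT, and at 30 tags or more 89.0% (87.0 to 90.7) and 58.5% (43.4 to 72.2). Of the distal regions with H3K27ac only, 41.1% held H3K27ac and 20.4% held BRG1 in NanogWT. Promoter regions with both held BRG1 in NanogWT at 84.4% and H3K27ac at 88.5%, and those with BRG1 only at 22.8% and 13.1%. The arms differ in the length of their lists, and a missing mark and a shallower library cannot be told apart in them.

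**Figure D4:**
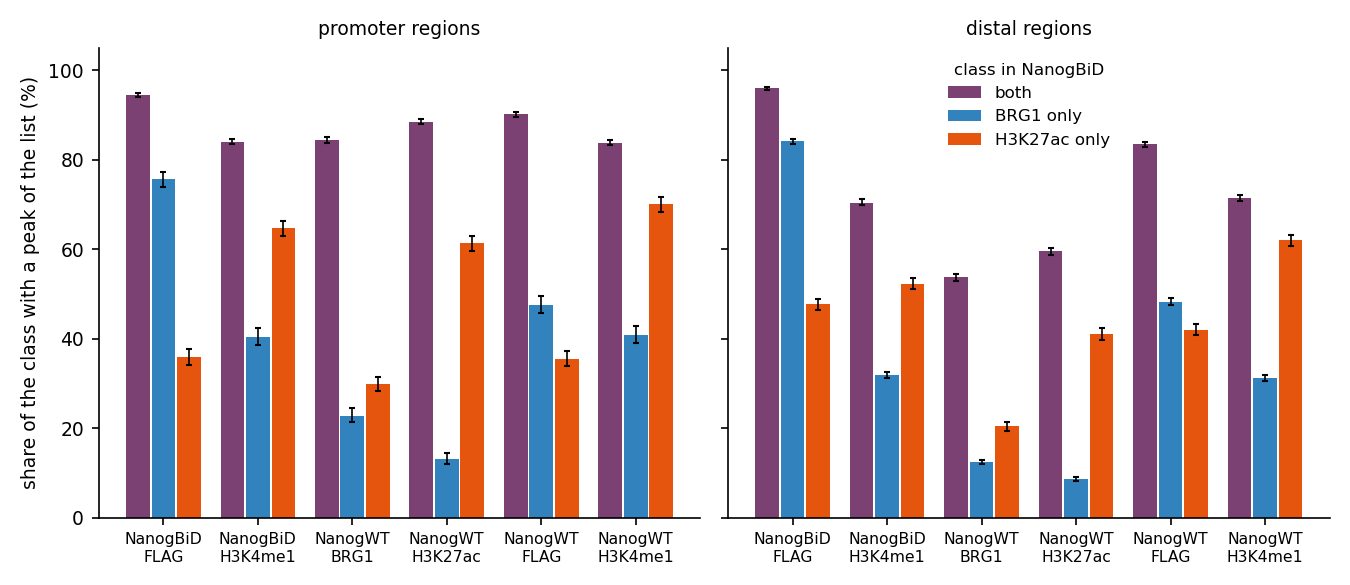
Share of regions of each NanogBiD class (bars) that overlapped a peak of the FLAG and H3K4me1 lists of NanogBiD and of the 4 lists of NanogWT (x axis), at promoters on the left and distal sites on the right. Error bars are 95% Wilson intervals over regions. Distal regions with BRG1 only stand at 84.1% for FLAG but at 31.9% for H3K4me1 and 12.4% for BRG1 in NanogWT.

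The classes also differed in where they lay and in their DNA. Distal regions with BRG1 only lay a median of 43.3 kb (14.4 to 137) from the nearest protein-coding start, those with both 33.2 kb (12.8 to 96.0) and those with H3K27ac only 27.6 kb (11.3 to 75.5), and 31.5%, 24.1% and 19.3% were at least 100 kb away. Introns held 50.8% to 52.8% of the summits of each distal class. The GC content of the 501 bp around the summit had a median of 41.7% for BRG1 only, 44.9% for both and 48.3% for H3K27ac only. At promoters with both it was 59.1%, with 5.79 CpG per 100 bp, and at promoters with BRG1 only 44.9%, with 1.20 CpG per 100 bp. Promoter regions with BRG1 only thus had the same median GC content as distal regions with both, and a median distance of 1.77 kb from a protein-coding start against 0.174 kb for promoters with both. CUT&Tag yield varies with base composition, and its part in these differences was not tested.

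AP-1 and octamer letters were more frequent at distal summits than 1 kb away in all 3 classes. At distal summits an AP-1 site lay in the 101 bp window of 9.08% (8.68 to 9.49) of regions with both and 8.22% (7.82 to 8.64) with BRG1 only, against 1.83% and 1.72% in windows of the same length 1 kb away, and in 5.21% (4.68 to 5.80) of regions with H3K27ac only, against 1.54% 1 kb away. Over all regions the share was 6.72%. The octamer ATGCAAAT, the site of OCT4, lay in 2.42% (2.21 to 2.65) of distal regions with both and 2.62% (2.39 to 2.87) with BRG1 only, with 0.714% and 0.685% 1 kb away, and in 1.48% with H3K27ac only, with 0.689% 1 kb away. SOX cores were more frequent with BRG1 only, 18.6% (18.1 to 19.2), than with both, 17.1% (16.6 to 17.7), and their share was 14.8% and 14.7% 1 kb away. For H3K27ac only the windows are centred on the H3K27ac summit, so its shares compare less directly with the rest.

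At promoters GC boxes and ETS sites were less frequent with BRG1 only, and AP-1 and SOX letters more frequent. GC boxes, the sites of SP1 and its relatives, lay at 23.2% (22.5 to 23.9) of promoter summits with both, 16.0% (14.7 to 17.3) with H3K27ac only and 4.75% with BRG1 only. The ETS site CCGGAAG lay at 3.77%, 3.20% and 0.689%. SOX cores lay at 8.71%, 8.10% and 14.9% (13.6 to 16.4), in the same order of classes, and at 13.2%, 12.2% and 12.4% in windows 1 kb away. With both and with H3K27ac only they were thus fewer at the summit than away from it. The share with BRG1 only was that over all regions, 14.9%. AP-1 sites lay at 3.09% with both and 7.28% (6.34 to 8.34) with BRG1 only, against 1.57% and 1.49% 1 kb away. A match of letters is a description of the window and not evidence of binding.

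Within the distal BRG1 classes AP-1 and SOX letters varied more with presence in NanogWT than with acetylation. Regions with both that also held BRG1 in NanogWT had AP-1 sites in 11.1% (10.5 to 11.7), and those without it in 6.78% (6.28 to 7.32). For BRG1 only the shares were 11.8% (10.5 to 13.3) and 7.71% (7.30 to 8.14). SOX cores ran the other way, at 15.7% and 18.8% for regions with both and 15.6% and 19.1% for BRG1 only. The octamer was found at 2.12% and 2.77% of regions with both, and at 1.59% and 2.76% of regions with BRG1 only. These splits were not matched on BRG1 height, with which presence in NanogWT rose. From 6 to 9 tags to 30 tags or more it went from 31.6% to 89.0% with both and from 8.51% to 58.5% with BRG1 only.

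The X chromosome lay outside the range of the autosomes in some shares of BRG1 and H3K27ac regions that held the other mark. On the autosomes between 50.5% (chromosome 14) and 57.7% (chromosome 17) of distal BRG1 regions held H3K27ac, and on the X 39.1% (35.5 to 42.9, 259 of 662) did. In NanogWT the X share was 65.5% (58.8 to 71.7, 135 of 206), inside the autosomal range of 63.8% to 70.7%. Promoter BRG1 regions on the X were acetylated in 87.5% (83.6 to 90.5) in NanogBiD, within the autosomal range of 78.9% to 88.8%. In NanogBiD promoter H3K27ac regions on the X held BRG1 in 73.1% (68.7 to 77.1), below the autosomal range of 79.3% to 85.7%, and distal ones in 77.1%, within 72.0% to 80.1%. In NanogWT promoter BRG1 regions on the X were acetylated in 90.5% (86.9 to 93.2), above the highest autosome at 90.2%, which its interval holds. For H3K27ac regions with BRG1 in NanogWT the promoter share was 75.1% (70.6 to 79.1) and the distal one 135 of 270 (44.1% to 55.9%), each below the lowest autosome, at 75.7% and 53.4%, with intervals that reach it. Embryos of either sex were used per the study's methods, and the part of sex in these values was not tested.

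Of 21728 protein-coding genes, 53.2% had a promoter region with both BRG1 and H3K27ac, 2.42% BRG1 only, 6.6% H3K27ac only, 0.658% both but in separate regions, and 37.1% neither. A gene counts here by any of its annotated starts. Of the genes with both, 10550 of 11561 (91.3%) had both in NanogWT, and of those with neither 7695 of 8063 (95.4%) had neither there. Of the 526 genes with BRG1 only, 284 (54.0%) had neither in NanogWT and 151 (28.7%) had BRG1 only there. Of the 1435 with H3K27ac only, 518 (36.1%) were the same in NanogWT and 474 (33.0%) had both there. At distal sites, 34.0% of genes were the nearest gene of at least 1 region with both, 30.6% of 1 with BRG1 only and 18.3% of 1 with H3K27ac only.

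The lists of genes below were chosen with earlier results of these data known and are described by counts. Of 27 mesenchymal genes 22 had both marks and none had neither, where 53.2% of all genes had both and 37.1% neither. Vim, which encodes the intermediate filament vimentin, held the tallest summits of the list, 52 tags for BRG1 and 50 for H3K27ac. Acta2, encoding smooth muscle actin, followed with 41 and 43, and Col1a1, encoding the main fibrillar collagen, had 14 and 24. The exceptions were Col6a2 (15 tags), Lum (13 tags) and Twist2 (15 tags) with H3K27ac only, Prrx1, a homeobox regulator of mesenchyme, with BRG1 only (15 tags), and Zeb2 with the marks in separate regions. In NanogWT Twist2 had both, at 14 and 23 tags, and Prrx1 had neither. The 13 fibroblast markers set as a check of the cells' identity are all among these 27 genes, and 11 of them had both.

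Markers of other cell types were not uniformly empty, and against 53.2% of all genes with both the blood list had 2 of 7, the endothelial list 1 of 5 and the neuron list 4 of 6. Among blood markers, 5 of 7 had neither mark, while Ptprc had both at 25 and 24 tags and Csf1r both at 17 and 19. Among endothelial markers, Tek had both, Cdh5 and Kdr had H3K27ac only, and Pecam1 and Tie1 had neither. Of 6 neuron markers, 4 had both, with BRG1 summits of 13 to 17 tags and H3K27ac summits of 10 to 22. The part of other cell types in these values was not tested. Of 1092 olfactory receptor genes 1067 had neither, 13 BRG1 only and 8 both, and of 81 ribosomal protein genes 74 had both.

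Of 25 pluripotency genes, 7 had both marks at their promoter and 14 had neither, against 53.2% and 37.1% of all genes. A further 2 had H3K27ac only (6.6% of all genes), 1 had BRG1 only (2.42%) and 1 had the marks in separate regions (0.658%). Klf4, Klf2 and Klf5, which encode zinc finger factors also active outside pluripotent cells, had both in both arms, and Klf4 stood at 22 BRG1 and 37 H3K27ac tags in NanogBiD and 23 and 33 in NanogWT. Tbx3, encoding a T-box factor, had the tallest BRG1 summit of those with both, 32 tags, with 32 for H3K27ac. Sall4, which encodes a zinc finger partner of OCT4, had both at 11 and 14 tags in NanogBiD and neither in NanogWT, and Nr5a2, encoding an orphan nuclear receptor, had 7 and 9 tags against neither. Tdgf1, the gene of the NODAL co-receptor, had BRG1 (24 tags) and H3K27ac (20 tags) in separate regions and neither in NanogWT. Dppa3 had H3K27ac only (11 tags) and neither mark in NanogWT, and Tfcp2l1 had H3K27ac only (16 tags) but both in NanogWT, at 8 and 14 tags. The promoters of Nanog, Sox2, Esrrb, Utf1 and Zfp42 had no peak of either list in either arm.

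Pou5f1, the gene of OCT4, was counted as BRG1 only with the tallest BRG1 summit of the list, 67 tags, beside 65 for FLAG and 78 for H3K4me1, and with no peak of BRG1 or FLAG there in NanogWT. That summit lay 2.55 kb beyond the annotated end of the gene, and its region reached the promoter window of a short transcript alone. The reporter of these cells carries Oct4 regulatory DNA, and if it holds this stretch, its tags and those of the gene itself cannot be told apart. Within the exons of Pou5f1 and Nanog the same holds for tags from the retroviral coding sequence.

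At distal sites the pluripotency genes were the nearest genes of 40 distal regions with both, 56 with BRG1 only and 13 with H3K27ac only, and 13 of 25 genes (52.0%) had at least 1 with BRG1 only, against 30.6% of all genes. At least 1 distal region with both was found for 10 of 25, against 34.0% of all genes. Mesenchymal genes had 75, 81 and 29 regions, and 81.5% of them had at least 1 with BRG1 only, as did 62.5% of germ layer regulators. Regions were given to the nearest gene at any distance, up to 865 kb for BRG1 only near Dppa4. These shares were not adjusted for the space around each gene. Of the 56 regions with BRG1 only, FLAG was present at 49, H3K4me1 at 20, and BRG1 in NanogWT at 4, where the shares over all distal regions with BRG1 only were 84.1%, 31.9% and 12.4%, and their median BRG1 summit was 10.5 tags. Of the 40 with both, BRG1 was present in NanogWT at 20 and H3K27ac at 24, close to the 53.7% and 59.5% of all distal regions with both. The 9 distal regions with BRG1 only around Sox2, a core pluripotency factor, had BRG1 summits of 7 to 17 tags, and its 3 regions with both had 7, 16 and 28 tags.

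Klf4 had 12 distal regions with both, 11 with BRG1 only and 2 with H3K27ac only. The region 119 kb upstream of it had 19 BRG1 and 39 H3K27ac tags, and 20 and 33 in NanogWT. By contrast, the region 389 kb upstream had 30 BRG1, 15 H3K27ac and 42 FLAG tags, and neither BRG1 nor H3K27ac in NanogWT, where FLAG stood at 15. The tallest BRG1-only region near Klf4, 186 kb upstream, had 21 BRG1, 40 FLAG and 19 H3K4me1 tags, and BRG1 at 7 tags in NanogWT. Near Nr5a2, the regions 174 kb and 258 kb upstream had 29 and 30 BRG1 tags with 23 and 15 H3K27ac tags, and neither mark in NanogWT. The region 4.71 kb upstream of Nanog had both in both arms, at 15 and 24 tags in NanogBiD and 10 and 20 in NanogWT. Near Esrrb, an orphan nuclear receptor gene, the 3 regions with both were low, with BRG1 summits of 7, 9 and 12 tags, and none had BRG1 or H3K27ac in NanogWT.

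Signalling and chromatin genes were for the most part of the class with both, which holds 53.2% of all genes. All 14 genes of the TEAD and Hippo list had both, among them Ccn1 and Ccn2, the classical targets of YAP, with 31 and 27 BRG1 and 40 and 37 H3K27ac tags. The list's tallest BRG1 summit was at Ccn1 and its tallest H3K27ac summits were at Amotl2 and Lats1, 43 tags each. Of 15 AP-1 genes 11 had both, led by Jun with 42 BRG1 tags and by Fos with 55 H3K27ac tags, while Batf3 and Fosl1 had H3K27ac only, Mafk BRG1 only and Batf neither. The medians over AP-1 genes with both were 29 BRG1 and 42 H3K27ac tags, against 18 and 28 over all genes with both. Of 27 BAF subunit genes 26 had both, Smarca4 itself at 31 and 44 tags. Smarcd3 had neither in NanogBiD, and BRG1 only at 14 tags in NanogWT. Among genes that write, erase or read acetylation 16 of 18 had both, with Hdac2 tallest at 38 and 55, Hdac8 with H3K27ac only (13 tags) and Hdac9 with BRG1 only (9 tags).

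Epithelial and lineage genes were mostly empty at promoters, where 37.1% of all genes had neither mark and 53.2% had both. Of 16 epithelial genes 10 had neither, including Cdh1, the gene of E-cadherin, and Epcam, and 5 had both, with Crb3 (19 and 22 tags), Cldn3 (18 and 22 tags) and Grhl2 (10 and 22 tags) highest. In NanogWT 3 of these 5 had BRG1 only, as did 1.91% of all genes with both in NanogBiD. Of 24 germ layer regulators 19 had neither, 2 (Eomes, 11 tags, and Hand2, 17 tags) had H3K27ac only, and 3 had both: Sox1 at 27 and 29 tags, Pax6 at 17 and 12, and Gata6 at 12 and 16. As a list they were nearest to 35 distal regions with BRG1 only and 20 with both, where all genes together had 17372 and 19459. There were 6 and 2 around Foxb1, a forkhead gene of the early nervous system, and 7 and 0 around Gata6. Members of the list also went the other way, with 1 and 5 around Sox1 and 1 and 4 around Foxa2. These counts were not adjusted for the space around each gene.

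The Hox genes, which set position along the body axis, held the largest share of H3K27ac without BRG1 among the lists of more than 10 genes. Of 39 genes, 13 had both, 11 (28.2%) had H3K27ac only, against 6.6% of all genes, 2 had BRG1 only and 13 had neither. The 11 were Hoxa4, Hoxa10, Hoxa11, Hoxb6, Hoxb7, Hoxb8, Hoxc11, Hoxd3, Hoxd4, Hoxd8 and Hoxd13, with H3K27ac summits of 9 to 19 tags. Neighbouring Hox genes can share a region, as Hoxb7 and Hoxb8 (18 tags each) and Hoxd3 and Hoxd4 (15 tags each) may do, so the 11 are not independent. In NanogWT 3 of the 11 had both, 3 H3K27ac only and 5 neither, where the shares over all genes with H3K27ac only in NanogBiD were 33.0%, 36.1% and 23.9%. Hoxc6 held the tallest H3K27ac summit of the list, 39 tags, and Hoxc6 and Hoxa5 the tallest BRG1 summits, 28 tags each. Hoxa5 had BRG1 only, at 17 tags, in NanogWT.

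**Figure D5:**
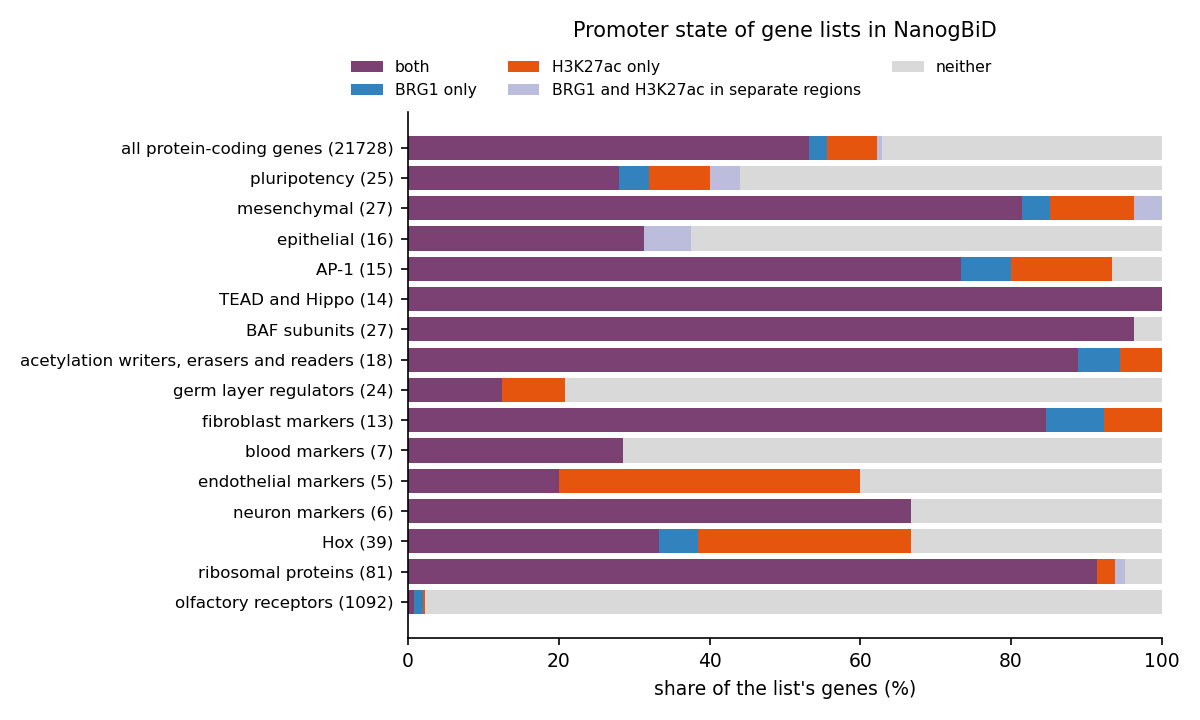
Share of genes (x axis, %) by promoter state in NanogBiD for each gene list (y axis, number of genes in brackets). All protein-coding genes are the top bar. All 14 TEAD and Hippo genes have both marks, 14 of 25 pluripotency genes and 1067 of 1092 olfactory receptor genes have neither, and 11 of 39 Hox genes have H3K27ac only.

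The strongest regions of each class show how the classes differ. Among promoters with both, the top score belonged to a region at chr17:39842926-39848911 inside the non-coding gene Gm26917, with 163 BRG1 and 103 H3K27ac tags. All 8 lists had peaks of 65 to 163 tags there, and its summits were the tallest of the whole NanogBiD lists of BRG1, H3K27ac and FLAG. Height shared by every target is not particular to BRG1 or H3K27ac, and the part of repeated sequence in it was not tested. Next by score came Ppp2r3d (50 and 46 tags), Sp1, whose product binds GC boxes (54 and 59), and Zbtb20 (61 and 48). Each had both marks in NanogWT as well, as did 80.8% of all promoter regions with both. Of all distal regions with both, 44.9% had both in NanogWT as well, and so did the 4 strongest. They lay 23.0 kb upstream of Rps6ka1 (39 and 46 tags), 16.3 kb upstream of Ccnl1 (40 and 43), 35.8 kb downstream of D430042O09Rik in an intron of Gsg1l (32 and 37), and 6.29 kb upstream of Zfp869 (32 and 47), the last with the AP-1 site shown above.

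Of all distal regions with BRG1 only, 83.3% were absent from the BRG1 and H3K27ac lists of NanogWT, and so were the 4 strongest. They lay 134 kb downstream of the start of Fign, 218 kb downstream of that of Spock3 in its intron, 155 kb upstream of Gm11114 and 273 kb downstream of D3Ertd751e. Their BRG1 summits were 24, 31, 22 and 20 tags, and FLAG stood at 39, 36, 36 and 33 tags in NanogBiD and at 11, 17, 10 and 18 in NanogWT. At each of the 4 FLAG was thus present in both arms and BRG1 in NanogBiD alone. H3K4me1 was low in NanogBiD, with 11, 11 and 12 tags near Fign, Gm11114 and D3Ertd751e and no peak near Spock3. The Fign, Spock3 and Gm11114 sequences are those printed above with SOX cores.

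The strongest promoters with BRG1 only were more mixed. Eef1a1, the gene of a translation elongation factor, had 41 BRG1 tags and no H3K27ac peak in NanogBiD, but a summit of 52 H3K27ac tags in NanogWT. Whether tags lay there below the limit of the NanogBiD list cannot be told from it. The region near Tmem259 had 46 BRG1 and 53 FLAG tags and stood at 47 and 43 in NanogWT, with no H3K27ac in either arm. That at Cacng2 had 30 BRG1 tags and an H3K27ac summit of 10 tags in NanogWT. The region named by Gm43517 lay 195 kb from that gene, close to the start of a small non-coding RNA, and had 23 BRG1 and 40 FLAG tags. Among promoters with H3K27ac only, Xaf1 (33 tags) and Psme3, a proteasome activator gene (31 tags), had BRG1 in NanogWT at 10 tags each, while Phf14 (26 tags) and Cox7c, a subunit of cytochrome oxidase (28 tags), had none in either arm. The strongest distal regions with H3K27ac only lay near Ndfip2 (23 tags), Grhl2 (29), Msra (14) and Gpr161 (23), all with H3K27ac in NanogWT, at 30, 25, 18 and 14 tags. In NanogWT BRG1 stood at 10 tags in each of the regions near Ndfip2 and Grhl2 and had no peak in those near Msra and Gpr161. Over all distal regions with H3K27ac only, 41.1% held H3K27ac and 20.4% held BRG1 in NanogWT.

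The 5 genes with the most distal regions of each class all had both marks at their promoter. Regions with both were most numerous around Zfp608 (30), Tenm4 (28), Zfhx3 (27), Pde4d (25) and Pik3c3 (25). Regions with BRG1 only were most numerous around Auts2 (33), Tenm3 (29), Pde4d (28), Dpp10 (24) and Flrt2 (23), and Auts2 also had 19 with both. Regions with H3K27ac only never exceeded 9 for a gene, the number at Foxp1, Pdzd2 and Sipa1l2. Such counts were not adjusted for the space around each gene. Genes with both marks at the promoter were nearest to at least 1 distal region with both in 43.1% and with BRG1 only in 37.1%, and genes with neither mark in 19.6% and 19.7%.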

How the data were processed

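CUT&Tag peaks and summits of BRG1, H3K27ac, FLAG and H3K4me1 were taken for both arms, 1 list per group. Per the study's methods, the authors trimmed reads with Trim Galore 0.6.4, aligned them to mm10 with Bowtie2 2.4.5, removed repetitive, mitochondrial and poorly mapped reads with SAMtools 1.16.1, merged replicates and called peaks with MACS 1.4.2, and no control library is named. The deposited peak score is the caller's -10 log10 p, and the deposited summit signal is a tag pileup not scaled for depth. The number of tags per library is not given in the sources used here. The labels and the methods differ in the kit and in the number of cells per reaction.

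Peaks of BRG1 and H3K27ac were merged where they overlapped or touched. Promoter regions overlapped the 2 kb either side of any GENCODE M21 transcript start, which cover 10.9% of the chromosomes, and the nearest gene is the protein-coding gene nearest to the BRG1 summit, or to the H3K27ac summit where BRG1 was absent. Motif letters were searched on both strands in 101 bp windows, and 1 kb away. Python 3.11.15, pandas 2.3.3, NumPy 2.4.6, SciPy 1.17.1, pyfaidx 0.9.0.4 and matplotlib 3.10.9 were used, and the merging and the shares were tested on simulated data. With 1 merged list per group no p-value was computed. Wilson intervals (95%) treat regions as independent, which they are not. The rule for names took the 4 regions of each class with the highest score (for both, the lower score of the pair), the 5 genes with the most distal regions of each class, and list members that held the tallest summit of their list or a promoter state unlike most of it. Other members and their distal regions were named after their values were seen. The members and gene lists were chosen with earlier results of these data known. Of the list members 1, Hbb-b1, could not be matched to the annotation.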

Additional observations from a re-analysis of the deposited data

How the results depend on the processing

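In all, 7 other ways of processing were applied to 10 values, and the scale of the values depended on them while most orders did not. With scores of at least 100 the shares of BRG1 regions with H3K27ac were 87.2% at promoters and 49.9% at distal regions, H3K27ac promoter regions held BRG1 in 74.3%, the median distal BRG1 summit was 18 tags with and 14 without H3K27ac, and FLAG was present in 97.2% and 91.4% and H3K4me1 in 44.4% and 15.8%. Cut to their top 20000 peaks by score, the lists gave BRG1 shares of 88.5% and 51.1%, H3K27ac shares of 64.7% and 70.0%, summits of 21 and 16 tags, FLAG 87.7% and 75.6%, and H3K4me1 49.6% and 19.6%. With summits of at least 15 tags these were 88.9% and 57.1%, 60.3% and 62.1%, 21 and 17 tags, 97.7% and 92.7%, and 53.9% and 19.6%. With windows of 100 bp either side of the summits they were 58.4% and 39.0%, 57.1% and 55.8%, 11 tags without H3K27ac, 88.5% and 69.7%, and 59.2% and 24.6%. Requiring an overlap of 50% of both peaks gave 68.4% and 47.2%, 67.5% and 67.9%, FLAG in 93.0% and 76.7%, and H3K4me1 in 63.4% and 28.5%. Joining peaks up to 1000 bp apart gave 85.7% and 54.1%, 83.4% and 77.9%, and H3K4me1 in 71.4% with H3K27ac. Promoters of 1 kb either side gave 88.5% of BRG1 and 82.6% of H3K27ac promoter regions. The remaining 17 of 70 values stayed within the 95% interval of the value reported.

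In 7 of 7 alternatives promoter BRG1 regions were more often acetylated than distal ones (by 19.4 to 37.4 points), distal BRG1 summits were taller with H3K27ac (by 4 to 5 tags), FLAG (by 4.95 to 18.8 points) and H3K4me1 (by 28.7 to 39.0 points) were more frequent with it, and the distal share of H3K27ac regions with BRG1 exceeded that of BRG1 regions with H3K27ac (by 4.99 to 26.1 points). The excess of BRG1 at promoter over distal H3K27ac regions was kept in 3 of 7 (from -5.27 to 6.67 points). In NanogWT, lists of 20000 peaks gave 87.1%, 59.1%, 82.1% and 63.3%. With summits of at least 15 tags NanogWT had 954 distal regions with BRG1 only and 5562 with H3K27ac only, against 5322 and 4324 in NanogBiD. The alternatives for NanogWT and for combinations of FLAG and H3K4me1 were chosen after seeing the data. The causes of these shifts were not tested. No paired analysis was possible because 1 merged list stands for every group. Depth, replicate spread and signal below the lists' limits are unknown, so absence of a peak bounds nothing.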
